A study of Mus musculus with 2 samples.

Results

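The mitochondrial ribosomal proteins are described here as all genes in the tables of both libraries whose symbol starts with Mrpl or Mrps followed by a digit. These were 78 of 14366 genes. Of the 78, 51 encode proteins of the large subunit and 26 proteins of the small subunit. Mrps18a and Mrps30 were counted with the large subunit, where their proteins sit despite the names. Mrps36, whose protein is known as a part of the oxoglutarate dehydrogenase complex, was counted with neither. The cells were haematopoietic stem cells (HSC) sorted from bone marrow of wildtype C57/B6 mice 6 to 8 weeks old, as lineage-negative, Sca-1+, c-Kit+, CD150+ and CD48- cells pooled from 8 mice. Both groups were cultured in Myelocult M5300 with supplements that included 100 ng/ml stem cell factor (SCF), and for 48 h received either sterile water (vehicle) or 10 µM of the iron chelator deferoxamine (DFO). From each culture 20000 live cells went into 10x Genomics 3′ library preparation, which counts each captured transcript molecule once through its unique molecular identifier (UMI). Each group is 1 library from 1 culture of the same cell pool, so no difference between the groups has a replicate check, no p-value was computed, and the intervals given are exact 95% intervals for counting error only.

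Mitochondria keep their own ribosome, which translates only the few respiratory chain subunits encoded by mitochondrial DNA. Its RNAs come from mitochondrial DNA, but all its proteins are encoded in the nucleus, made in the cytosol and imported. Some members have a counterpart in the bacterial ribosome and others were added during the evolution of mitochondria. The mammalian mitochondrial ribosome also holds iron-sulfur clusters, bound between proteins such as Mrps16 and Mrps25. Stem cells of the bone marrow are known for their dependence on controlled mitochondrial activity, and iron-sulfur clusters are built from iron, which DFO binds.

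The members are nuclear genes spread over many chromosomes. To show what the regulatory sequence of a member looks like, the 100 bases before the start in the RefSeq promoter table (build GRCm38.p6, 5′ to 3′ on the gene's strand) are given for the most abundant member, Mrpl20, for 2 members with a match to the nuclear respiratory factor 1 (NRF1) site, Mrpl32 and Mrpl9, and for the members with the largest differences between the libraries, Mrps10, Mrps17 and Mrpl30. The start is that of a transcript listed in that table, and a gene can have other starts. RefSeq gene coordinates place the start of Mrps10 at 47368887 and that of Mrpl9 at 94443154, upstream of the stretches shown. These stretches thus lie inside the annotated genes. For Mrps17 the gene start, 129715450, falls within the stretch shown. Capitals mark the CACGTG (E-box) match in Mrpl20 and the NRF1 matches in Mrpl32 and Mrpl9. The windows are chr4:155802778-155802877 (+) for Mrpl20, chr13:14613038-14613137 (-) for Mrpl32, chr3:94443236-94443335 (+) for Mrpl9, chr17:47369097-47369196 (+) for Mrps10, chr5:129715397-129715496 (+) for Mrps17 and chr1:37890377-37890476 (+) for Mrpl30.
Mrpl20: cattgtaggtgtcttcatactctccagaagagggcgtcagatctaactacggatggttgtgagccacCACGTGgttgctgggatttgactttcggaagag
Mrpl32: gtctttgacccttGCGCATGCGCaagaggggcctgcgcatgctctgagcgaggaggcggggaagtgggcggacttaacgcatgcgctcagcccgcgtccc
Mrpl9: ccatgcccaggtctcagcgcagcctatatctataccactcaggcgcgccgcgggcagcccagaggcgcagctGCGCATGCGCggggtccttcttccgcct
Mrps10: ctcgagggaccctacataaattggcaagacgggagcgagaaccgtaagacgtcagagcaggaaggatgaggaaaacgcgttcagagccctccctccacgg
Mrps17: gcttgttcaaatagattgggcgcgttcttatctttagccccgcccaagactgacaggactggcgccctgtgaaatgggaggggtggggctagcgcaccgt
Mrpl30: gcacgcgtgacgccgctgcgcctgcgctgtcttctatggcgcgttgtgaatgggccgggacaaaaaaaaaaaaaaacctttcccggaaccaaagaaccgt

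Across the 69 members with a sequence in that table, 4 motifs were searched on both strands in the whole window of 250 bases before to 50 bases after the start. The NRF1 motif matched in 3 members (Mrpl32, Mrpl39 and Mrpl9; 4.35%), against 2.78% of the 7099 tested genes and 1.07% of all 27025 genes in the table. ETS (CCGGAAGT) matched in 12 members (17.4%), against 11.2% and 4.31%. The YY1 motif matched in 5 members (7.25%), against 3.11% and 0.995%, and the E-box (CACGTG) in 5 (Mrpl2, Mrpl20, Mrpl36, Mrpl37 and Mrps18c; 7.25%), against 12.5% and 8.09%. Of the 69, 47 had none of the 4. A match describes letters in the window and is no measured binding site.

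The vehicle library held 8708 cells and 260938938 molecules, and the DFO library 9852 cells and 284326017 molecules, with medians of 27806 and 27114 UMIs per cell. The libraries shared 24 cell barcodes (0.276% of vehicle and 0.244% of DFO barcodes). All 18 HSC markers were detected, at a summed level of 715.3 CPM (molecules scaled to a library total of 1000000) in vehicle and 737.7 CPM in DFO. Megakaryocyte markers summed to 2122 and 1117 CPM, erythroid markers to 905.2 and 870.8 CPM, and neutrophil and monocyte markers to 266.8 and 244.1 CPM. Markers of lymphoid, macrophage or dendritic, mast or basophil, and stromal or endothelial cells each summed to between 1.85 and 12.7 CPM, and Col1a1 was at 0 in a library. Cells with transcripts of both sexes were seen in both libraries (211 and 335 cells), and values without these and other likely doublets are given with the alternatives.

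Together the members made up 1.02% of the molecules in the vehicle library (2660398 molecules, 10196 CPM) and 1.04% in the DFO library (2968672 molecules, 10441 CPM). Cells carried a median of 280 member molecules in vehicle and 282 in DFO. Genes whose mean over the libraries reached 5 CPM, 8886 in all and 77 of the members, are called tested genes below. The median tested member had a mean of 116.0 CPM, against 28.8 CPM for all tested genes, and lay at percentile 84.8 of these. Since each molecule is counted once whatever the transcript's length, CPM values were compared between genes without a length correction. Levels ran over a wide range: 45 members lay above 100 CPM, 31 between 20 and 100 CPM, and 2 below 20 CPM. The 6 most abundant members held 20.6% of all member molecules.

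Mrpl20, whose bacterial counterpart acts early in the assembly of the large subunit, was the most abundant member, with 431.4 CPM (428.9 to 433.9) in vehicle and 470.1 CPM (467.6 to 472.6) in DFO. Mrps14, a small subunit protein, followed with 404.3 CPM (401.8 to 406.7) and 423.1 CPM (420.7 to 425.5). These genes stood above the rest in both libraries, and none of the 4 intervals overlapped. Mrpl18, of the large subunit's central protuberance, had 323.8 and 333.8 CPM. Mrps16, which shares an iron-sulfur cluster with Mrps25, had 306.3 CPM (304.2 to 308.4) and 327.8 CPM (325.7 to 330.0). Mrps24 had 303.3 CPM (301.2 to 305.4) and 320.8 CPM (318.7 to 322.8), and Mrpl12, a protein of the stalk that recruits translation factors, 302.7 CPM (300.6 to 304.8) and 298.9 CPM (296.9 to 300.9). In vehicle, the intervals of Mrps16 and Mrps24 overlapped, as did those of Mrps24 and Mrpl12, so that their order is not resolved.

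At the low end, Mrpl53 had 0.460 CPM (0.381 to 0.550) in vehicle and 0.521 CPM (0.440 to 0.611) in DFO, from 120 and 148 molecules. Another gene, Gm42688, overlaps it on the same strand and shares its 3′ sequence in the GENCODE M21 annotation, so the level of Mrpl53 is uncertain, and it alone among the members stayed below 5 CPM. The next lowest were Mrps27, a small subunit protein of the pentatricopeptide repeat family, with 19.99 and 19.9 CPM, Mrps2 with 22.2 and 23.5 CPM, and Mrps31 with 24.3 and 26.4 CPM. Near-identical 3′ transcript sequence elsewhere in the annotation was also found for Mrpl41, Mrps21, Mrpl23, Mrpl42 and Mrpl22, each with a pseudogene that is not in the tables, and the values of these members carry the same uncertainty.

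**Figure D1:**
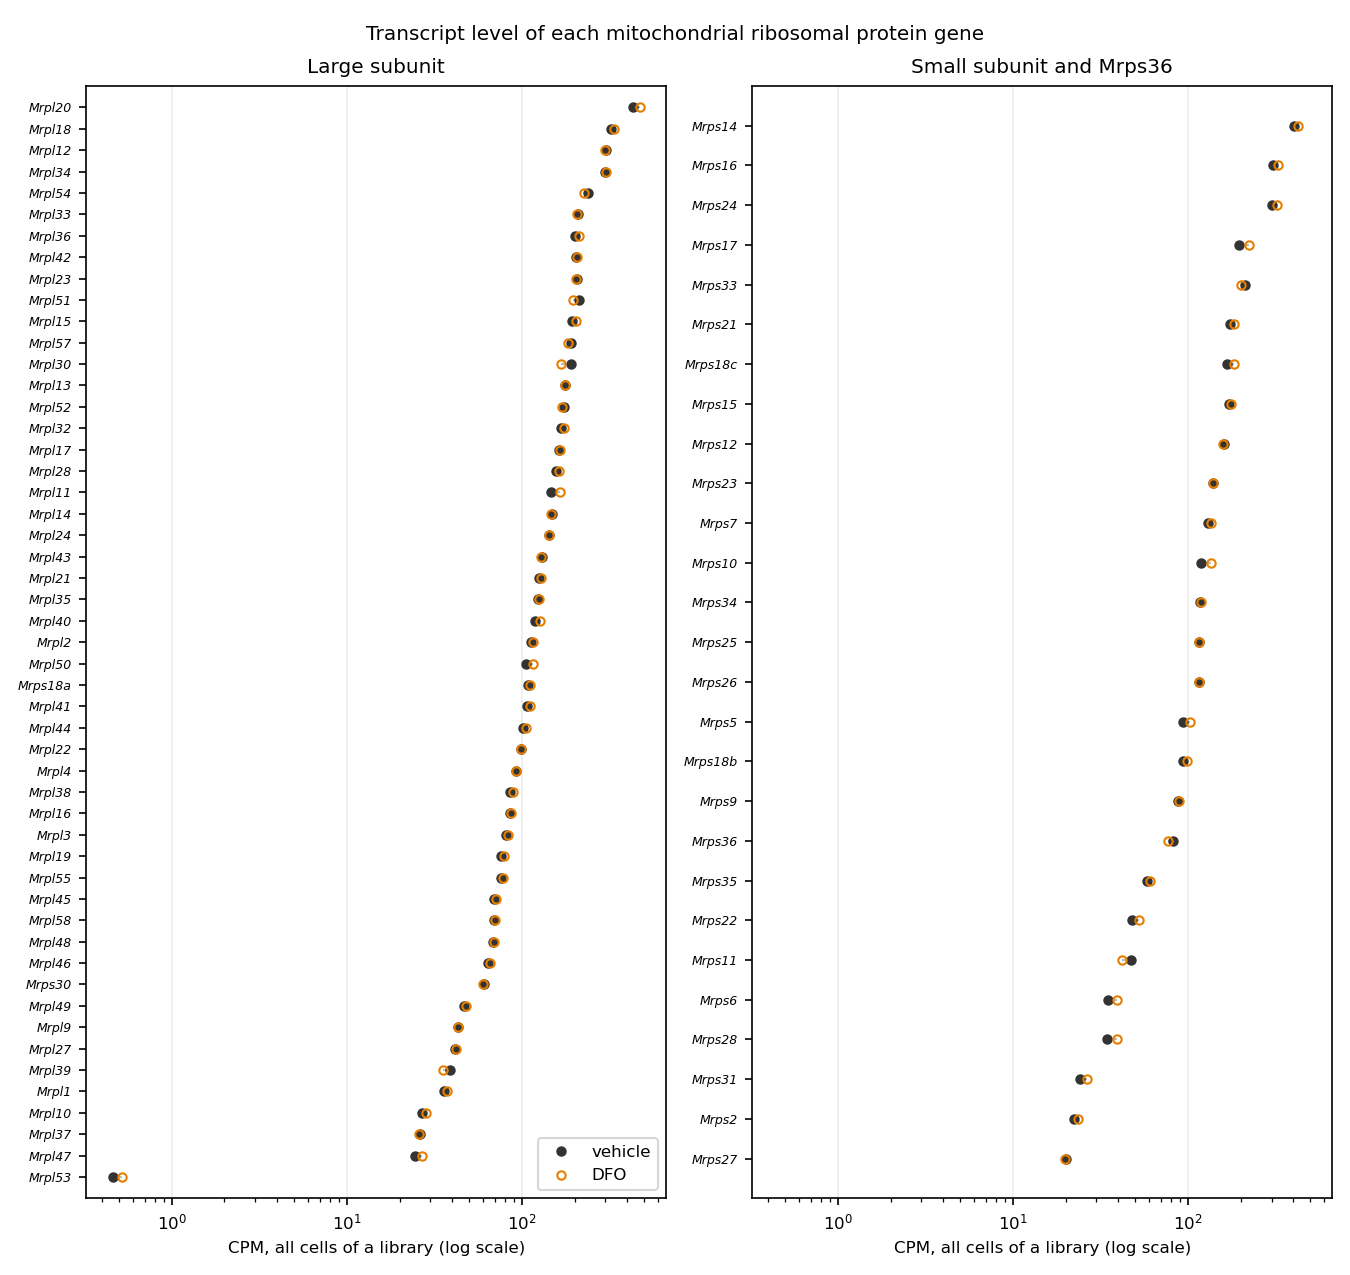
Level of each of the 78 genes in CPM (log axis) in the vehicle library (filled) and the DFO library (open), with large subunit genes on the left and small subunit genes with Mrps36 on the right, ordered by mean level. Most genes lie between 20 and 470.1 CPM, Mrpl53 lies below 1 CPM, and the paired points are close for every gene.

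In vehicle the large subunit summed to 6718 CPM and the small subunit to 3395 CPM, and in DFO to 6816 and 3548 CPM. The ratio of large to small subunit molecules was 1.98 (1.97 to 1.98) in vehicle and 1.92 (1.92 to 1.93) in DFO, and the intervals did not overlap. With 51 large and 26 small subunit genes, this ratio is close to the ratio of the gene numbers. Medians were taken over tested genes, which leaves out Mrpl53. They were nearly the same in vehicle, 116.2 CPM for the large and 116.3 CPM for the small subunit. In DFO the medians were 120.7 and 117.5 CPM. Proteins with a bacterial counterpart had higher transcript levels in the large subunit. The median in vehicle was 142.6 CPM over 31 genes, against 100.9 CPM over 19 tested genes without one. In the small subunit the medians were 129.9 CPM over 17 genes and 115.6 CPM over 9 genes.

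Between the libraries the members differed little, and mostly toward higher levels in DFO. A difference is given as log2((DFO CPM + 1)/(vehicle CPM + 1)), and its interval is that of the ratio without the added 1. Of the 77 tested members, 55 were higher and 22 lower in DFO, with a median of 0.036 and a standard deviation over members of 0.073. Among all tested genes 57.9% were higher, with a median of 0.019 and a standard deviation of 0.13. The count depended on the scaling: with library totals that leave out mitochondrially encoded and cytosolic ribosomal protein genes, 43 members were higher and 34 lower, with 49.9% of all tested genes higher, and with the median of gene ratios 44 were higher and 33 lower, with 51.3% of all tested genes higher. Counting intervals lay above 0 for 43 members and below 0 for 12, and held 0 for 22. For all tested genes the shares above and below were 39.5% and 26.3%. Neither these shares nor the standard deviations are matched for level, and the members lie at higher levels, where counting intervals are narrower. A difference of 1.1-fold or more was seen upward in 6 members (10.1% of all tested genes) and downward in 2 (8.56%). The largest differences among members were 0.19 upward and -0.18 downward. No member was 25% or more higher, against 0.428% of all tested genes, or lower by the same factor, against 1.54%.

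Of the 6 members higher by 1.1-fold or more, 5 belong to the small subunit and have bacterial counterparts. Mrps10 had 118.3 CPM (116.9 to 119.6) in vehicle and 135.2 CPM (133.9 to 136.6) in DFO, a difference of 0.19 (0.17 to 0.22). Mrps17 went from 195.7 CPM (194.0 to 197.4) to 222.6 CPM (220.8 to 224.3), a difference of 0.18 (0.17 to 0.20). For both genes the DFO value lay above the vehicle value in 10 of 10 cell clusters described below. Mrps6, which shares an iron-sulfur cluster with Mrps18c, went from 34.7 to 39.4 CPM (0.18; 0.14 to 0.22), and Mrps28 from 34.7 to 39.2 CPM (0.17; 0.14 to 0.22). Mrps5 went from 93.5 to 103.0 CPM (0.14; 0.11 to 0.16). These genes were also higher in 10 of 10 clusters, as were 9.91% of all tested genes. The 6 members were picked by their difference over the same cells, so the clusters are no independent check. The large subunit member of the group was Mrpl11, at the base of the factor-binding stalk, which went from 147.3 CPM (145.8 to 148.8) to 165.5 CPM (164.0 to 167.0), a difference of 0.17 (0.15 to 0.19), and was higher in 9 of 10 clusters.

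At the other end, Mrpl30, a large subunit protein with a bacterial counterpart, had 191.0 CPM (189.3 to 192.7) in vehicle and 168.2 CPM (166.7 to 169.7) in DFO, a difference of -0.18 (-0.20 to -0.16). Its RefSeq coordinates on GRCm38.p6 are chromosome 1, 37890477 to 37898338, and the start of Mitd1 lies 66 bases away on the other strand. Mrps11, a small subunit protein, went from 47.0 CPM (46.2 to 47.9) to 41.7 CPM (41.0 to 42.5), a difference of -0.17 (-0.21 to -0.14). Both were lower in 9 of the 10 clusters, Mrpl30 with cluster 9 and Mrps11 with the HSC-like cluster 5 as the exception. Mrpl39 and Mrpl51, large subunit proteins without a bacterial counterpart, went from 38.6 to 35.3 CPM (-0.13; -0.17 to -0.089) and from 211.9 to 196.4 CPM (-0.11; -0.13 to -0.093). Mrps36 went from 82.28 to 77.02 CPM (-0.094; -0.12 to -0.068). Mrps33, a small subunit protein without a bacterial counterpart, went from 212.3 to 200.1 CPM (-0.085; -0.10 to -0.069).

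**Figure D2:**
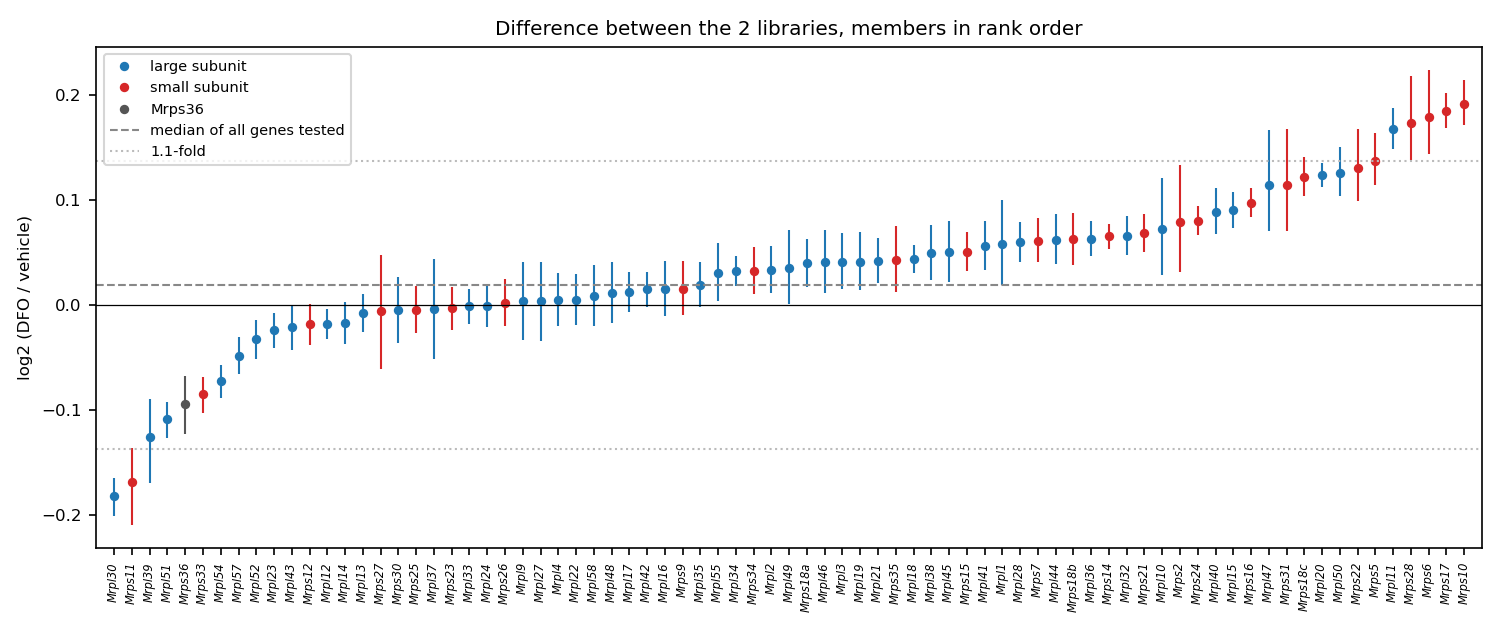
Difference between the libraries, log2((DFO CPM + 1)/(vehicle CPM + 1)), for the 77 tested members in rank order. Bars are exact 95% counting intervals of the ratio without the added 1, so points can lie off their centre. Large subunit genes are blue, small subunit genes red and Mrps36 grey; the dashed line is the median of all tested genes (0.019), and 5 of the 6 points above the upper dotted line (1.1-fold) are small subunit genes.

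The small subunit differed more than the large. Its median difference was 0.064, with 20 of 26 genes higher, and its summed level differed by 0.064 (0.060 to 0.068). The large subunit had a median of 0.025, with 35 of 50 genes higher, and a summed difference of 0.021 (0.018 to 0.024). Among all tested genes 57.9% were higher, with a median of 0.019. The spread within each subunit was larger than the gap between them, with standard deviations of 0.085 over small and 0.062 over large subunit genes. Leaving out mitochondrially encoded and cytosolic ribosomal protein genes from the totals gave medians of 0.044 and 0.0053.

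Within the small subunit, the genes with a bacterial counterpart differed more than those without one. Of the former, 15 of 17 were higher, with a median of 0.079, and their sum went from 2544 to 2699 CPM, a difference of 0.085 (0.080 to 0.090). Mrps11 and Mrps12 were the exceptions. Of the 9 small subunit genes without one, 5 were higher, with a median of 0.0023, and their sum went from 850.8 to 849.2 CPM (-0.0027; -0.011 to 0.0056). The largest differences among them were Mrps22, with 47.8 CPM in vehicle and 52.5 CPM in DFO (0.13; 0.099 to 0.17), and Mrps31 (0.11). In the large subunit, 24 of 31 genes with a counterpart were higher, with a median of 0.032, and 11 of 19 without one, with a median of 0.012. These medians are descriptions of small lists that share both libraries. Of all tested genes 57.9% were higher, close to the share among genes without a counterpart (55.6% in the small and 57.9% in the large subunit).

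Members whose proteins bind iron-sulfur clusters were looked at by role because DFO chelates iron. Mrps16 (difference 0.098; 0.084 to 0.11), Mrps6 (0.18) and Mrps18c, with 168.1 CPM in vehicle and 183.1 CPM in DFO (0.12; 0.10 to 0.14), were higher in DFO. Mrps18a, with 108.4 and 111.4 CPM, differed by 0.040 (0.017 to 0.063). Mrps25, the partner of Mrps16, had 116.2 and 115.9 CPM, with an interval that held 0 (-0.0043; -0.027 to 0.018). Transcripts of the partners Mrps16 and Mrps25 therefore did not shift by the same amount, and the median of the 5 genes was 0.098. Mrps18b, the remaining member of the Mrps18 family, had 94.1 and 98.3 CPM (0.063; 0.038 to 0.088). All 3 genes of this family, whose proteins sit at different places in the ribosome, were thus higher, as were 57.9% of all tested genes.

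Other functional regions of the large subunit differed less. Of the 3 stalk genes, Mrpl11 was described above, Mrpl10 had 26.9 CPM in vehicle and 28.3 CPM in DFO (0.072; 0.028 to 0.12), and Mrpl12 differed by -0.018 (-0.032 to -0.0040). The 6 genes of the central protuberance, which carries the contacts to the small subunit, were all higher, with a median of 0.042, from Mrpl58 (0.0090) to Mrpl40 (0.089). The 5 genes near the peptidyl transferase centre, where peptide bonds are formed, were all higher as well, but with a median of 0.016 and none above 0.041. Intervals held 0 for Mrpl48 and Mrpl58 of the central protuberance and for Mrpl4, Mrpl16 and Mrpl27 of the peptidyl transferase centre. Each of these genes took both signs under the alternatives. Among all tested genes 57.9% were higher. Of the 8 genes around the exit tunnel, 5 were higher, with a median of 0.0088, from Mrpl39 (-0.13) to Mrpl47 (0.11). Mrps30, another large subunit protein, had 60.4 and 60.2 CPM (-0.0047; -0.036 to 0.026).

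The genes that build and serve the mitochondrial ribosome were examined as lists taken from their known roles. For comparison, 57.9% of all tested genes were higher in DFO, 10.1% passed 1.1-fold upward and 8.56% passed it downward. Of 5 further ribosomal proteins with other names, 3 were higher, with a median of 0.011, from Chchd1 (235.8 CPM in vehicle, 250.3 CPM in DFO, 0.086) and Ptcd3 (0.052) to Gadd45gip1 (-0.036) and Aurkaip1 (-0.047). Of 24 assembly factors, 18 were higher, with a median of 0.076, and 5 passed 1.1-fold upward and none downward. The highest were Mterf3, which acts with ribosomal RNA in assembly, at 11.8 and 14.6 CPM (0.28), and the GTPase Gtpbp10, with 10.9 and 13.4 CPM (0.27). The lowest were Mtg1 and Mpv17l2, both at -0.076. Of 13 translation factors, 7 were higher, with a median of 0.016. The elongation factor Gfm1 had 33.8 and 38.3 CPM (0.18) and Tsfm 118.6 and 132.1 CPM (0.15), while Mtrf1l (-0.073) and the recycling factor Mrrf (-0.079) were lower.

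Of 19 aminoacyl-tRNA synthetases that act in mitochondria, 12 were higher, with a median of 0.047, while 57.9% of all tested genes were higher. They ran from Hars2 (0.17) and Yars2 (0.14) to Lars2 (-0.12) and Fars2 (-0.16), so members of this list lay on both sides. Of 12 genes of mitochondrial DNA transcription, upkeep and RNA stability, 9 were higher, with a median of 0.022, led by the single-stranded DNA binding protein gene Ssbp1, at 97.1 and 113.4 CPM (0.22), and by Slirp (0.17). Lrpprc, whose protein is the binding partner of the Slirp protein, differed by -0.020 (-0.060 to 0.018), and the RNA polymerase gene Polrmt by -0.031 (-0.11 to 0.042). Of 12 proteases, chaperones and import factors, 10 were higher, with a median of 0.083, from the chaperonin gene Hspd1 (903.4 CPM in vehicle, 1023 CPM in DFO, 0.18) and Timm44 (0.18) to Yme1l1 (-0.015) and Lonp1 (-0.086).

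The transcripts that this ribosome translates differed more than the transcripts of its own proteins did. The 13 mitochondrially encoded genes summed to 38049 CPM in vehicle and 43470 CPM in DFO, a difference of 0.192 (0.191 to 0.193), and 12 of 13 were higher. The complex I genes mt-Nd3 (0.55) and mt-Nd1 (0.29) were at the top of this list, and mt-Nd6 (-0.063) and then mt-Nd5 (0.0033) at the bottom. Transcripts of the cytosolic ribosomal proteins moved the other way, from 25.7% to 24.1% of all molecules, a summed difference of -0.089. Of their 94 tested genes 30 were higher, against 57.9% of all tested genes. Mitochondrially encoded and cytosolic ribosomal protein genes are both large parts of the total to which every CPM value is scaled. Their part in the members' difference is given by the scaling without them, under which the median of the members was 0.016.

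Clustering without the member genes gave 10 clusters of cells, of which 3 were named from their markers: cluster 4 megakaryocyte-like (2448 cells over both libraries), cluster 5 HSC-like (2193 cells) and cluster 8 erythroid-like (500 cells). Cluster 0 was led by histone genes and cluster 3 by genes of mitosis. Cluster 6 was led by Il1rl1 and held Gzmb, and the small cluster 9 by Mpo, Ctsg and Elane. Clusters 1 and 2 were led by Ung and Slc7a8. Cluster 7 consisted of shallow cells, with a median of 6938 UMIs and a mitochondrial share of 6.85%, and was not named.

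The summed member level was highest in the megakaryocyte-like cluster, at 11250 CPM (11229 to 11272), and followed by cluster 2 with 10854 CPM (10831 to 10877) and the histone-led cluster 0 with 10527 CPM (10508 to 10546). It was 9282 CPM (9255 to 9309) in the HSC-like cluster, 8570 CPM (8508 to 8633) in the erythroid-like cluster and 6726 CPM (6670 to 6782) in the shallow cluster 7. The HSC-like cells therefore had lower member levels than the megakaryocyte-like cells, with intervals that did not overlap. The 2 clusters also differed in depth, with medians of 21659 and 34464 UMIs, and in the summed G2/M list, with 5052 and 10075 CPM. The erythroid-like cluster had 16430 UMIs and 4469 CPM. The part of depth and cell cycle in these member levels was not tested. Relative to all other cells, the median member was higher by 0.10 on the log2 scale in the megakaryocyte-like cluster, with 60 of 77 members higher against 48.8% of all tested genes. In the HSC-like cluster it lay at -0.18, with 8 of 77 members higher against 45.3% of all tested genes, and in the erythroid-like cluster at -0.32, with 8 of 77 higher against 43.5%. Cluster 7 stood apart with -0.72, while its median over all tested genes was 0.17. Its depth and mitochondrial share differ from those of the other clusters, and their part in its member level was not tested. The order of the clusters at the top and bottom was the same when mitochondrially encoded and cytosolic ribosomal protein genes were left out of the totals, with 15457 CPM of the remaining molecules in the megakaryocyte-like cluster and 10201 CPM in cluster 7.

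**Figure D3:**
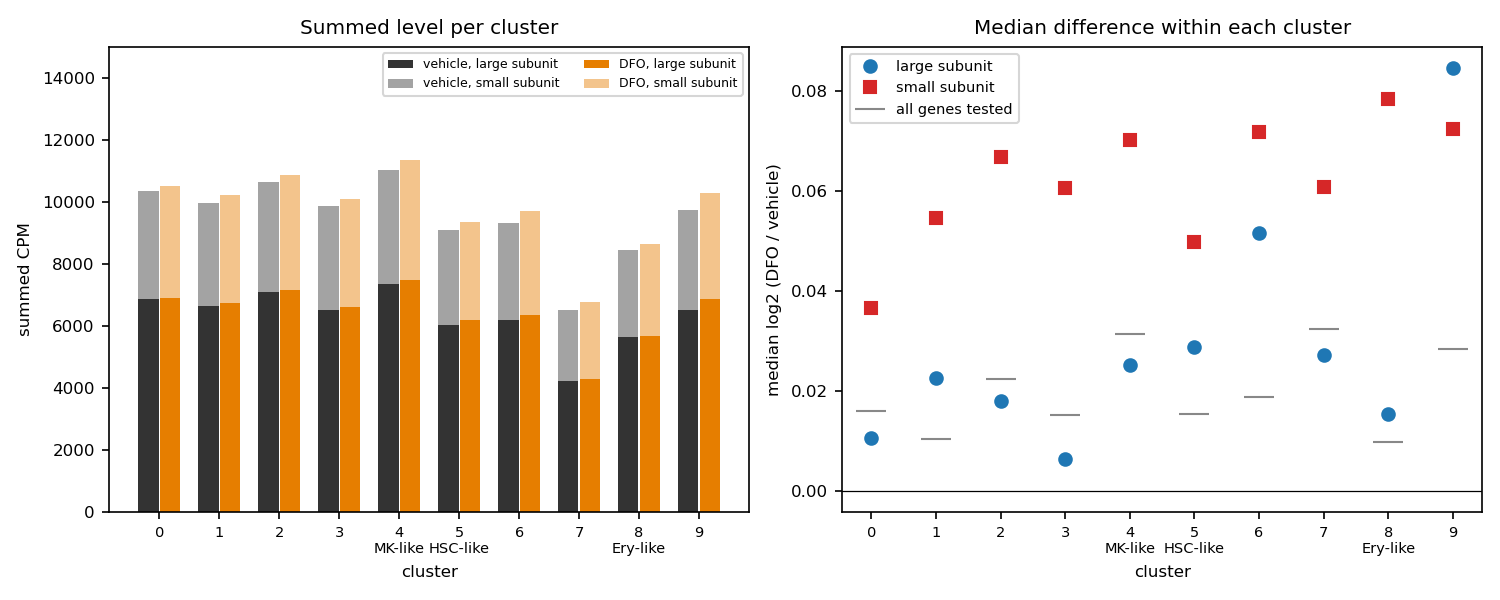
Left, summed CPM of large and small subunit genes (stacked bars from 0) in each cluster and library. Right, median difference log2((DFO CPM + 1)/(vehicle CPM + 1)) within each cluster for large subunit genes (circles), small subunit genes (squares) and all tested genes (lines); the squares lie above the circles in 9 of 10 clusters.

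Over the 9 clusters of at least 200 cells, 32 of the 77 tested members (41.6%) were highest in the megakaryocyte-like cluster, as were 13.4% of all tested genes. Cluster 0 was the highest for 15 members (19.5%, against 6.71% of all tested genes) and cluster 3 for 13 (16.9%, against 5.58%). None was highest in the HSC-like cluster, against 6.91% of all tested genes. Cluster 7 was the lowest for 59 members (76.6%, against 26.3%) and the erythroid-like cluster for 13 (16.9%, against 18.9%). Among the 76 members whose mean reached 20 CPM, the range of log2 values over these clusters had a median of 0.90, and 30 (39.5%) ranged over more than 1, against a median of 0.90 and 42.7% for all 5490 genes at that level. Without cluster 7 the medians were 0.51 for both, and 2 members (2.63%) ranged over more than 1, against 14.7% of all genes.

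The 5 members with the largest range all had their lowest value in cluster 7. They were Mrps22 (55.2 CPM in cluster 0, 13.3 CPM in cluster 7), Mrpl16 (99.1 CPM in cluster 6, 24.7 CPM in cluster 7), Mrpl39 (39.9 CPM in cluster 3, 9.78 CPM in cluster 7), Mrpl46 (74.6 CPM in the megakaryocyte-like cluster, 20.4 CPM in cluster 7) and Mrpl22 (107.5 CPM in the megakaryocyte-like cluster, 31.2 CPM in cluster 7). Their log2 ranges were 1.97, 1.96, 1.92, 1.82 and 1.75, and without cluster 7 they were 0.59, 0.64, 0.22, 0.49 and 0.42. The members that ranged most without cluster 7 were others, named after their values were seen. Mrps31 had 33.2 CPM in the mitosis-led cluster 3, 31.9 CPM in cluster 0, 26.6 CPM in the HSC-like cluster, 16.3 CPM in the megakaryocyte-like cluster and 12.3 CPM in the erythroid-like cluster. Mrps10 had 140.8 CPM in cluster 0 and 69.2 CPM in the erythroid-like cluster. Mrpl20, the most abundant member, had 586.2 CPM in the megakaryocyte-like cluster and 363.3 CPM in the HSC-like cluster.

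**Figure D4:**
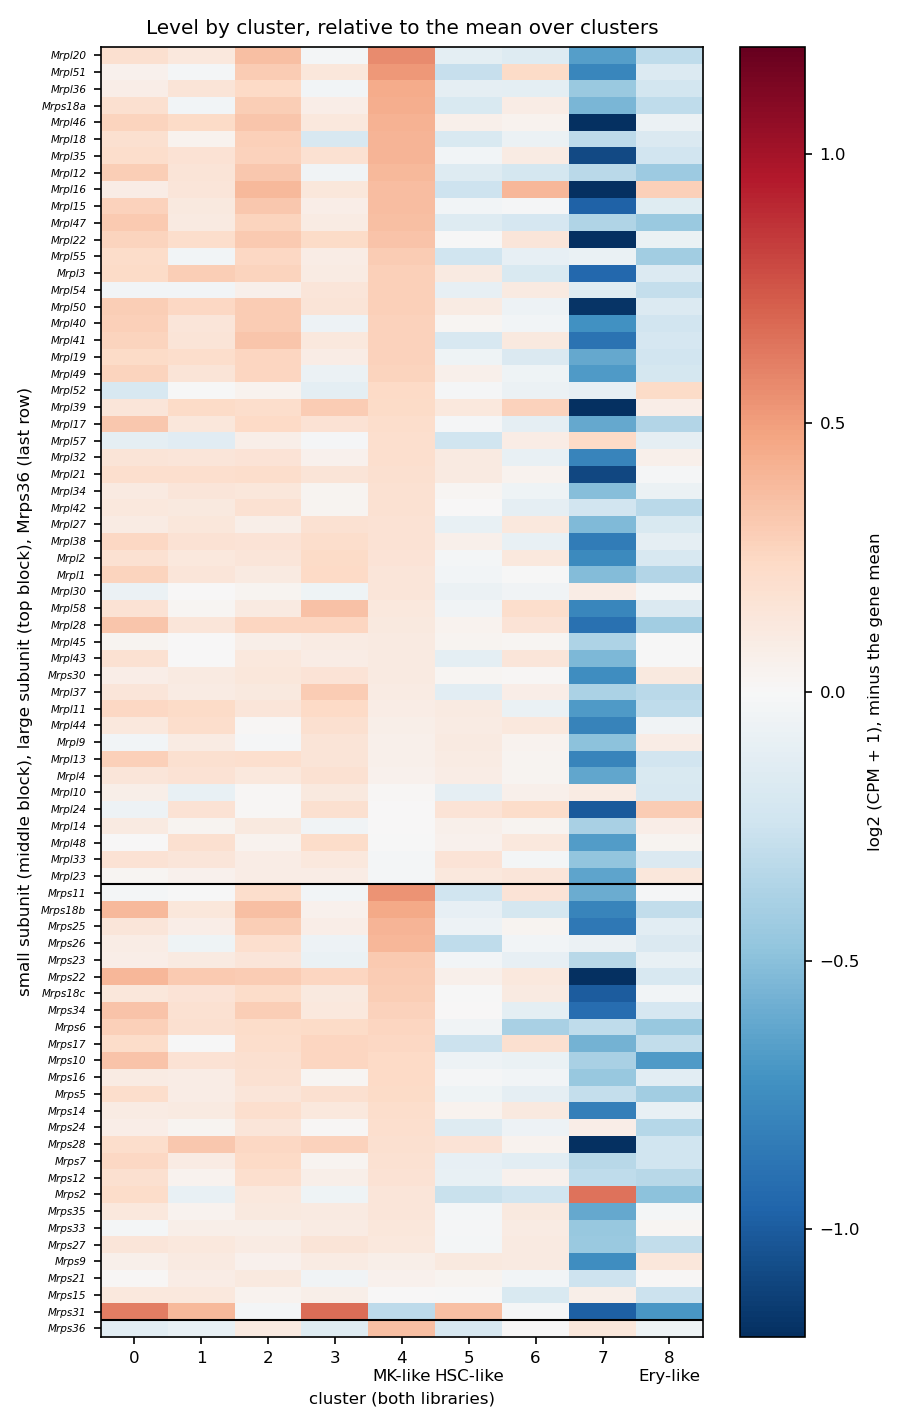
Level of each tested member in the 9 clusters of at least 200 cells (both libraries together), as log2(CPM + 1) minus the gene's mean over these clusters; red is higher and blue lower. Large subunit genes form the upper block, small subunit genes the middle block and Mrps36 the last row; column 7 is lowest for 59 members, and Mrps31, a small subunit gene, has 33.2 CPM in cluster 3 and 16.3 CPM in the megakaryocyte-like cluster.

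Scaled to the full totals, the summed member level was higher in DFO within each of the 10 clusters, by 0.023 in cluster 0 to 0.078 in cluster 9. All 10 intervals lay above 0. These totals hold cytosolic ribosomal proteins, which in cluster 0 went from 255421 CPM in vehicle to 240879 CPM in DFO. They also hold mitochondrially encoded genes, which there went from 40185 to 44496 CPM. Whether the sign holds in each cluster with totals without these genes was not tested. The median member difference was 0.043 in the megakaryocyte-like cluster, where 56 of 77 members were higher against 60.6% of all tested genes. It was 0.040 in the HSC-like cluster, with 58 of 77 higher against 54.7%, and 0.025 in the erythroid-like cluster, with 45 of 77 higher against 51.7%. In the unnamed clusters 0, 1, 2, 3, 6, 7 and 9, the members higher numbered 44, 49, 50, 48, 56, 47 and 51, against 56.8%, 53.6%, 58.0%, 55.9%, 55.7%, 56.5% and 54.6% of all tested genes. The member median exceeded that of all tested genes in 8 of 10 clusters, and clusters 0 and 7 were the exceptions. The clusters share the same 2 libraries and are not replicates. The megakaryocyte-like cluster held 1449 vehicle and 999 DFO cells and the erythroid-like cluster 373 and 127. Genes that define them differed between the libraries, so no order is read from these sizes, but with equal cluster shares in both libraries the median member difference was 0.028.

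The gap between the subunits was seen across clusters. The small subunit median was above that of all tested genes in 10 of 10 clusters and above the large subunit median in 9, whereas the large subunit median was above that of all tested genes in 5. In the megakaryocyte-like cluster the small and large subunit medians were 0.070 and 0.025, and in the HSC-like cluster 0.050 and 0.029. In cluster 9, of 169 cells, the order was the opposite, with 0.072 and 0.085. The ratio of large to small subunit molecules was lower in DFO in 10 of 10 clusters, with intervals that did not overlap in 7. It was 2.00 (1.99 to 2.01) in vehicle and 1.94 (1.93 to 1.95) in DFO in the megakaryocyte-like cluster, and 2.02 (1.99 to 2.06) and 1.91 (1.85 to 1.97) in the erythroid-like cluster. In the HSC-like cluster it was 1.97 (1.96 to 1.99) and 1.94 (1.93 to 1.96), with overlapping intervals. In cluster 9 it was 2.02 (1.97 to 2.07) and 2.01 (1.96 to 2.07). With thinned cells the order in cluster 9 was the opposite, at 2.01 in vehicle and 2.04 in DFO. Small subunit genes with a bacterial counterpart had a higher median than those without one in 10 of 10 clusters. Of these 17 genes, 13 to 15 were higher in each cluster, against 51.7% to 60.6% of all tested genes. The corresponding order in the large subunit held in 7 clusters.

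Of the 77 tested members, 17 were higher in DFO in all 10 clusters, against 9.91% of all tested genes, and none was lower in all, against 4.82%. These shares are not matched for level: the median was 116.0 CPM for tested members and 28.8 CPM for all tested genes. At low levels counting error turns signs more readily, and its part here was not tested. Of these 17, Mrpl20 differed by 0.12 in cluster 2 to 0.19 in cluster 6, and Mrps17 by 0.14 in cluster 0 to 0.39 in cluster 7. For Mrps6 the difference ran from 0.054 in cluster 7 to 0.58 in the erythroid-like cluster, with 0.33 in megakaryocyte-like and 0.11 in HSC-like cells. Mrps31 differed by 0.11 over all cells but was higher in 4 of 10 clusters, and with equal cluster shares its difference was 0.035. When cells were called female or male from Xist and Y-linked transcripts, the member medians were 0.036 and 0.039, with 53 and 54 of 77 members higher against 57.1% and 57.2% of all tested genes. In both sexes 48 members were higher and 18 lower, and 11 differed in sign. This count was not made for all tested genes, so it is not read as a trait of the members. Cells of both sexes came from the same 2 cultures.

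Per cell, after thinning each cell to 10000 molecules, which left out 351 vehicle and 433 DFO cells, the median cell had 100 member molecules in vehicle (5th to 95th percentile 72 to 127) and 103 in DFO (76 to 129). The distributions overlapped widely. Across cells, the large and small subunit counts correlated with a Pearson r of 0.45 over 8357 vehicle cells and 0.39 over 9419 DFO cells. Member counts correlated with mitochondrially encoded counts at -0.23 and -0.32, and with cytosolic ribosomal protein counts at -0.52 and -0.46. These are descriptions of cells within a library, whose counts share a fixed total of 10000, so that a larger part of one group leaves less for the others.

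Cells were scored for cell cycle phase from S and G2/M gene lists. Cells scored G1 had a mean of 82.7 member molecules per 10000 in vehicle and 85.3 in DFO, those scored S 99.8 and 101.8, and those scored G2/M 102.1 and 104.6. The step from G1 to S was thus larger than the step between the libraries in any phase. Cells scored G1 made up 8.38% of vehicle and 5.19% of DFO cells, and within phases the median member differences were 0.039 in G1, 0.028 in S and 0.037 in G2/M, with 55, 51 and 54 of 77 members higher against 55.6%, 56.2% and 57.5% of all tested genes. Free RNA in the droplets also enters these scores and counts, and its part was not tested.

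**Figure D5:**
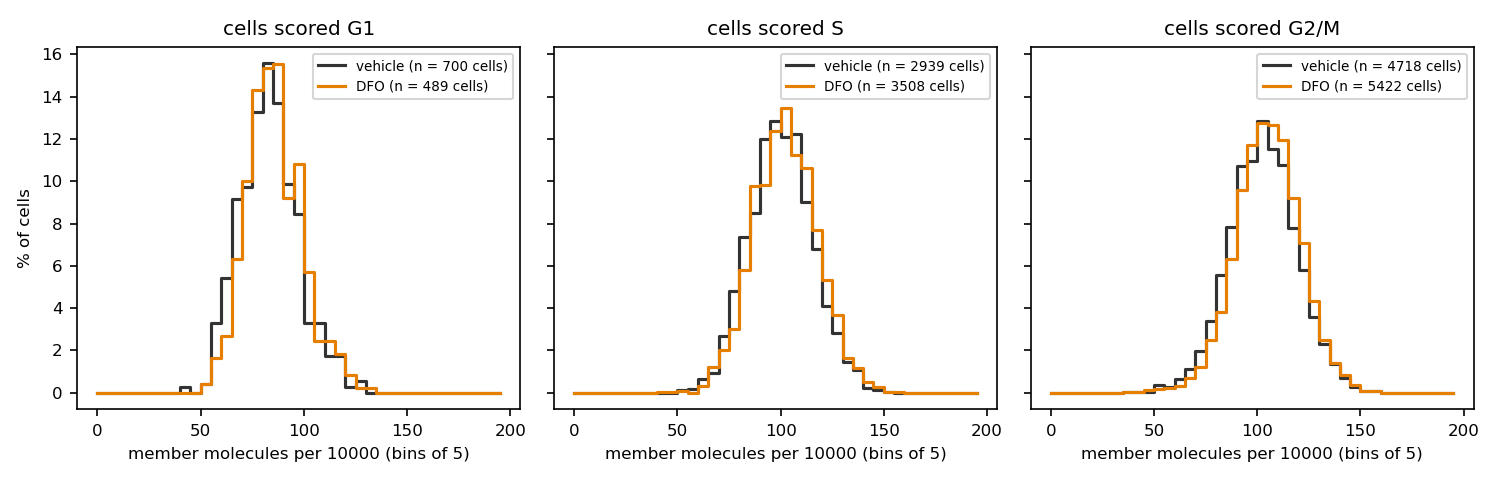
Distribution of member molecules per cell, thinned to 10000 molecules per cell (x axis, bins of 5), as the percentage of cells (y axis) in the vehicle (black) and DFO (orange) library, for cells scored G1, S and G2/M. The G1 curves sit to the left of the S and G2/M curves, with means of 82.7 and 85.3 against 99.8 to 104.6.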

How the data were processed

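Per the labels' protocols, 1 library was made from vehicle and 1 from DFO-treated cells with 10x Genomics 3′ v3 chemistry and sequenced on 2 BGISEQ-500 lanes each. The full list of culture supplements is not reported here. The submitters' processing notes name Cell Ranger 3.0.2, FastQC 0.11.9, Trim Galore 0.6.5 and the build mm10. No source used here states the cell filter. The authors deposited a gene by cell table per library in natural log units. From the values, each entry is ln(1 + 27408 × molecule share), and 100% of nonzero entries came out as whole molecules within 0.05. No column of other samples was present (0 unmapped). Molecules were summed per library and scaled to CPM, and a gene was tested, that is compared, at a mean of 5 CPM or more, with a pseudocount of 1 CPM. No count model was fitted, since each group has 1 library. Intervals are exact 95% Poisson intervals for levels and conditional binomial (Clopper-Pearson) intervals for differences and ratios, at 260938938 and 284326017 molecules. The intervals for differences were computed without the pseudocount. They cover counting error only.

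Cells were clustered with scanpy 1.11.5 and leidenalg 0.10.2 (2000 variable genes without members, cell cycle, mitochondrially encoded and cytosolic ribosomal protein genes, 30 components, 15 neighbours, resolution 0.5, seed 0) without integration. Scrublet's own threshold marked 3 and 2 cells and so did not work; likely doublets were the top 8% of its scores plus cells of both sexes (820 and 925 cells), left out only as an alternative. Female cells had at least 5 Xist molecules, male cells at most 1 and at least 2 Y-linked molecules. The computation was tested on simulated data. Python 3.11.15, numpy 2.4.6, scipy 1.17.1 and pandas 2.3.3 were used.

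The members, the lists and the rules were chosen with earlier results of these data known. Genes named singly are the 6 highest and 4 lowest members by level, the 6 highest and 6 lowest by difference, the 5 with the largest range over clusters of at least 200 cells at a mean of 20 CPM or more, the iron-sulfur, Mrps18 family and stalk members, Mrps18a, Mrps30 and Mrps36, and the 2 highest and 2 lowest of each pathway list. Others are named as exceptions or for a list's ends. Promoter sequences are from RefSeq (GRCm38.p6), gene overlaps from GENCODE M21. Alternatives covered pseudocount, scaling, combining cells, cell filter, doublets, sex, cluster makeup, expression minimum, subunit assignment and clustering. The translation factor list has 13 of its 14 genes in the tables. Protein sequences were not used here.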

Additional observations from a re-analysis of the deposited data

How the results depend on the processing

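The median member difference (0.036) stayed above 0 under all alternatives run, from 0.016 with totals without mitochondrially encoded and cytosolic ribosomal protein genes to 0.046 with thinned cells. That of the large subunit (0.025) ranged from 0.0053 to 0.034 and that of the small subunit (0.064) from 0.044 to 0.082. Members higher in DFO numbered 43 to 56 of 77. Where computed, the share of all tested genes that were higher ran from 49.9% to 60.3%. The median of all tested genes was -0.00022 under the first of these scalings and 0.0028 with the median of gene ratios. Without likely doublets the member median was 0.038, with 56 of 77 members higher against 57.1% of all tested genes. Members past 1.1-fold numbered 5 to 9 upward and 1 to 3 downward, with 1 downward (2 as reported) under equal cluster shares. The shares of all tested genes past 1.1-fold, 10.1% and 8.56% as reported, are not given under the alternatives. The log2 range of the summed level over clusters (0.74) was 0.39 without cluster 7 and 0.60 with the other total, both chosen after the data were seen, and 0.72 at clustering resolutions of 0.25 and 1.0. Of the 77 tested members, 43 were higher and 14 lower under each of the 11 alternatives that give a value per gene, and 20 took both signs. The same count is not given for all tested genes, so it is not read as a trait of the members. Of 352 values of 32 singly named genes, 313 stayed within the counting interval of the reported value, 39 moved further and 0 reversed a difference whose interval had excluded 0. No paired analysis was possible because each group has 1 library, and no library could be left out for the same reason. The libraries are deep, so counting intervals are narrow; the spread between cultures is not measured here.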

Other observations

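Members often lie head to head with another gene in the GENCODE M21 annotation. Of the 78 members, 23 (29.5%) had the start of a gene on the other strand up to 1000 bases before their own start, or overlapping it by under 100 bases, against 16.8% of the 13087 protein-coding genes in the tables. With starts that overlap by up to 1000 bases included, the count was 37 (47.4%), against 26.2%. Mrps11 and Mrpl46, both members, are such a pair, with starts 412 bases apart. Mrpl30 pairs with Mitd1 at 66 bases, Mrpl51 with the condensin gene Ncapd2 at 100 bases, Mrps12 with Sars2, the mitochondrial seryl-tRNA synthetase gene, at 172 bases, and Mrpl40 with the histone chaperone gene Hira at 175 bases. Mrpl36 and Ndufs6, a gene of respiratory complex I, overlap at their starts. Other-strand genes within the last 500 bases were annotated for 9 members and same-strand genes for 3 (Mrpl53, Mrps34 and Mrpl51). These genes were named after their values were seen.

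Mrpl30, which had the lowest difference between the libraries, was among the members whose level varied least over cell states, from 170.1 CPM in cluster 0 to 198.2 CPM in the megakaryocyte-like cluster, and unlike most members it was not low in cluster 7 (190.5 CPM). Mrps2 and Mrpl57 were the members with their highest level in cluster 7, at 35.3 and 221.6 CPM.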
